A study of Rattus norvegicus with 78 samples.

Results

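The Bcl2 family holds the proteins that decide whether the outer mitochondrial membrane stays intact when a cell is under stress. Guardian proteins such as Bcl2, Bcl-xL and Mcl1 hold the membrane closed, the effectors Bax and Bak1 form the pores through which cytochrome c escapes to start the caspases, and the BH3-only proteins, such as Bad, Bid, Bik, Puma and Bim, sense damage and tip the balance by binding the guardians or the effectors. In the testis the family removes surplus and damaged germ cells, and mouse testes without Bax fail to complete spermatogenesis. The genes described here are Bcl2, Bcl2l1 (which encodes Bcl-xL), Mcl1, Bax, Bak1, Bad, Bid, Bik, Bbc3 (which encodes Puma) and Bcl2l11 (which encodes Bim). They were found by their symbol in the annotation of the array: 10 of 10 were present, on 13 of 29214 probe sets, among 14506 genes with a symbol of their own. Of the 3 genes with 2 probe sets (Bcl2l1, Mcl1 and Bax), the one of higher mean over all arrays was used.

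RNA came from sperm let out of the cauda epididymis of Fischer 344 rats and was measured on 78 arrays, 1 per sample, which the labels number as biological replicates within each group. The groups were corn oil at the end of exposure (20 arrays), 5 mg/kg/day DBCP at the end of exposure (20 arrays), and corn oil and DBCP rats after a recovery period (19 arrays each). DBCP is 1,2-dibromo-3-chloropropane, a soil fumigant that is toxic to male germ cells, corn oil was the control treatment, and exposure lasted 3 months. The age of the rats and the length of the recovery are left unstated in the labels, so recovery arrays may also differ from the earlier ones in age and in day of collection, which cannot be told apart from recovery.

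Values are log2 levels per probe set, differences are log2 differences with their standard error (SE), and a gene is said to have risen or fallen where the Benjamini-Hochberg adjusted p of limma's moderated test, over all probe sets, was under 0.05. The array medians lay between 6.55 and 6.75. The 15 of 15 markers of late spermatids all had means above the median of all probe sets, and so had 14 of 17 markers of leukocytes and 4 of 5 of red cells. The number of arrays limits the precision. In such bulk samples, fewer cells of a type and less RNA per cell cannot be told apart.

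Of the 10 genes, 8 had a mean above 6.69, the median of all probe set means. Bad (6.49) and Bcl2l11 (6.37) lay below it, and Bad exceeded the median of its own array on 3 of 78 arrays and Bcl2l11 on 7. Small differences of these dim probe sets may go unseen. The brightness of a probe set depends on its probes, so levels are compared between groups only, not between genes.

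Bcl2, Bak1 and Bcl2l11 were the members whose levels moved together from rat to rat, as described further on, so the stretches before their transcription starts are shown. They are the 250 bases before the RefSeq start in the GRCr8 assembly, read 5′ to 3′ on the gene's strand, and capitals mark core promoter motifs found on either strand. The TATA box was searched as the letters TATAAA. The box that binds the factor NF-Y was searched as CCAAT. The GC box, which binds Sp1, was searched as GGGCGG, and no motif overlapped another. The reference is from another rat strain than the one studied.
Bcl2, chr13:23366901-23367150, minus strand: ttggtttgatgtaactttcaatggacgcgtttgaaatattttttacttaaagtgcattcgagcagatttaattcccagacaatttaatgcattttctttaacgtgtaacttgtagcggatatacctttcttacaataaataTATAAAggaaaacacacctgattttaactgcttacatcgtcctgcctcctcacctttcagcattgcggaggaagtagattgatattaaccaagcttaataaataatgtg
Bak1, chr20:5110975-5111224, minus strand: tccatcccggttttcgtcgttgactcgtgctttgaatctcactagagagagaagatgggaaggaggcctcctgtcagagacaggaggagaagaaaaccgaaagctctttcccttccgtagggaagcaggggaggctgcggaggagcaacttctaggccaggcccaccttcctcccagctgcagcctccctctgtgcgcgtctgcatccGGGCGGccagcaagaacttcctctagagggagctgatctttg
Bcl2l11, chr3:135819792-135820041, plus strand: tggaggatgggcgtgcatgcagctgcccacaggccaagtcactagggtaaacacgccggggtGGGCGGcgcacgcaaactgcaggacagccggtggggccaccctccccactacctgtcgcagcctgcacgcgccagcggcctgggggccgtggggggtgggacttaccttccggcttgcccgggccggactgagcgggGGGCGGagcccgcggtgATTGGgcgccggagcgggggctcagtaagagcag

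No motif was held by all 3 windows. The Bcl2 window held 1 TATA box and was 33.6% G or C, the Bak1 window held 1 GC box (57.6% G or C), and the Bcl2l11 window held 2 GC boxes and 1 NF-Y box (72.0% G or C). Over 33469 rat windows of the same length, 12.9% held the TATA box, 34.0% the NF-Y box and 30.5% the GC box, and the median share of G or C was 51.2%. A half-site of p53, the damage-induced transcription factor that is known to activate Bax and Bbc3, was searched on both strands as well. It was held by 6.64% of all windows and by 0 of these 3. The table has a window for 7 of the 10 genes. Bax, Bik and Bbc3 had no entry.

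Set against corn oil rats when exposure ended, DBCP rats show whether a germ cell toxicant went with changed transcripts of the family in sperm. None of the 10 genes passed: the guardians, the effectors and the BH3-only genes all had differences between -0.13 and 0.13, and the arrays of both groups overlapped for 10 of 10. How many of all probe sets overlapped in this way was not counted. At an unadjusted p under 0.05 the count was also 0 of 10, where 11.6% of all probe sets had such a p. After adjustment limma called 0% of the whole array, that is 0 of 29214 probe sets.

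Among the guardians, Mcl1, a short-lived protein that many cells need to survive, lay between 6.94 and 8.94 (median 8.15) on DBCP arrays and between 7.79 and 8.92 (median 8.25) on corn oil arrays. The lowest of these values came from 1 DBCP rat, replicate 7, whose next lowest neighbour stood at 7.63. The difference was -0.13 ± 0.10, with 13 of 20 DBCP arrays below the corn oil mean, and -0.07 ± 0.09 without that replicate. Bcl2, the founding member of the family, differed by 0.09 ± 0.12. Without DBCP replicate 2 that value was 0.06, and without corn oil replicates 16 or 18 it was 0.15 or 0.13. Bcl2l1 differed by 0.04 ± 0.04 (0.03 without corn oil replicate 15), and its other probe set by -0.04 ± 0.04.

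Of the effectors, Bak1 was the member with the smallest p. It lay between 7.57 and 8.27 (median 7.96) on DBCP arrays and between 7.54 and 8.19 (median 7.85) on corn oil arrays. The difference was 0.13 ± 0.07 (limma adjusted p = 0.452, unadjusted 0.0602), with 12 of 20 DBCP arrays above the corn oil mean. Bax, which p53 induces after DNA damage, differed by 0.03 ± 0.05, with a 95% interval of -0.07 to 0.13.

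The BH3-only genes had differences between -0.05 (Bid, which caspases cleave to link death receptors to mitochondria) and 0.04 (Bcl2l11). Bbc3, the BH3-only gene most closely tied to p53, stood at -0.04 ± 0.03, with a 95% interval of -0.10 to 0.03. For this gene a rise of more than 0.03 at the end of exposure lies outside that interval.

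Markers of late spermatids and sperm, and of leukocytes, differed beside these values without passing: 15 of 15 late spermatid markers were higher in DBCP rats at the end of exposure (median difference 0.40) and 15 of 17 leukocyte markers lower (median difference -0.15). Of all probe sets 38% were above 0 in this contrast, with a median difference of -0.02. With the mean levels of both lists as covariates, Mcl1 stood at 0.04 ± 0.09 and Bak1 at 0.11 ± 0.05, neither passing.

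After recovery the same contrast called 0% of the array, and 3.71% of all probe sets had an unadjusted p under 0.05. The members again gave 0 of 10 at either threshold. The differences lay between -0.15 (Mcl1, ± 0.10, 13 of 19 DBCP arrays below the corn oil mean) and 0.03 (Bbc3, ± 0.03). Bak1 stood at -0.11 ± 0.07, with 15 of 19 DBCP arrays under the control mean, and had the smallest unadjusted p, 0.115. Its highest DBCP value, 8.71, came from replicate 7, the array to which limma gave the lowest quality weight of all 78, while the median was 7.83 against 8.00 in corn oil rats. Bax differed by 0.03 ± 0.05 as it had before. Of the leukocyte markers 14 of 17 were lower in DBCP rats here too (median difference -0.18, 0 passing), where 57.9% of all probe sets were above 0. With the late spermatid and leukocyte levels as covariates Mcl1 stood at -0.0041 ± 0.09 and Bak1 at -0.03 ± 0.05, while without the 6 arrays of low weight Bak1 stood at -0.18 ± 0.06 (limma adjusted p = 0.498).

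The interaction compares the DBCP difference at recovery with that when exposure ended. It also passed for 0 of 10 members and 0% of the array. Bak1 was the only one of the 10 with an unadjusted p under 0.05: its DBCP difference was lower by 0.23 at recovery than before it, an interaction of -0.23 ± 0.09 (unadjusted p = 0.0156, limma adjusted p = 0.454). Across the array 10.9% of probe sets had an unadjusted p under 0.05 in this contrast, so the count of 1 in 10 is near the background. The interaction of 15 of 15 late spermatid markers was below 0 as well (median -0.41, 0 passing), where 61.5% of all probe sets were above 0. With the late spermatid and leukocyte levels as covariates the interaction of Bak1 was -0.14 ± 0.07.

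**Figure D1:**
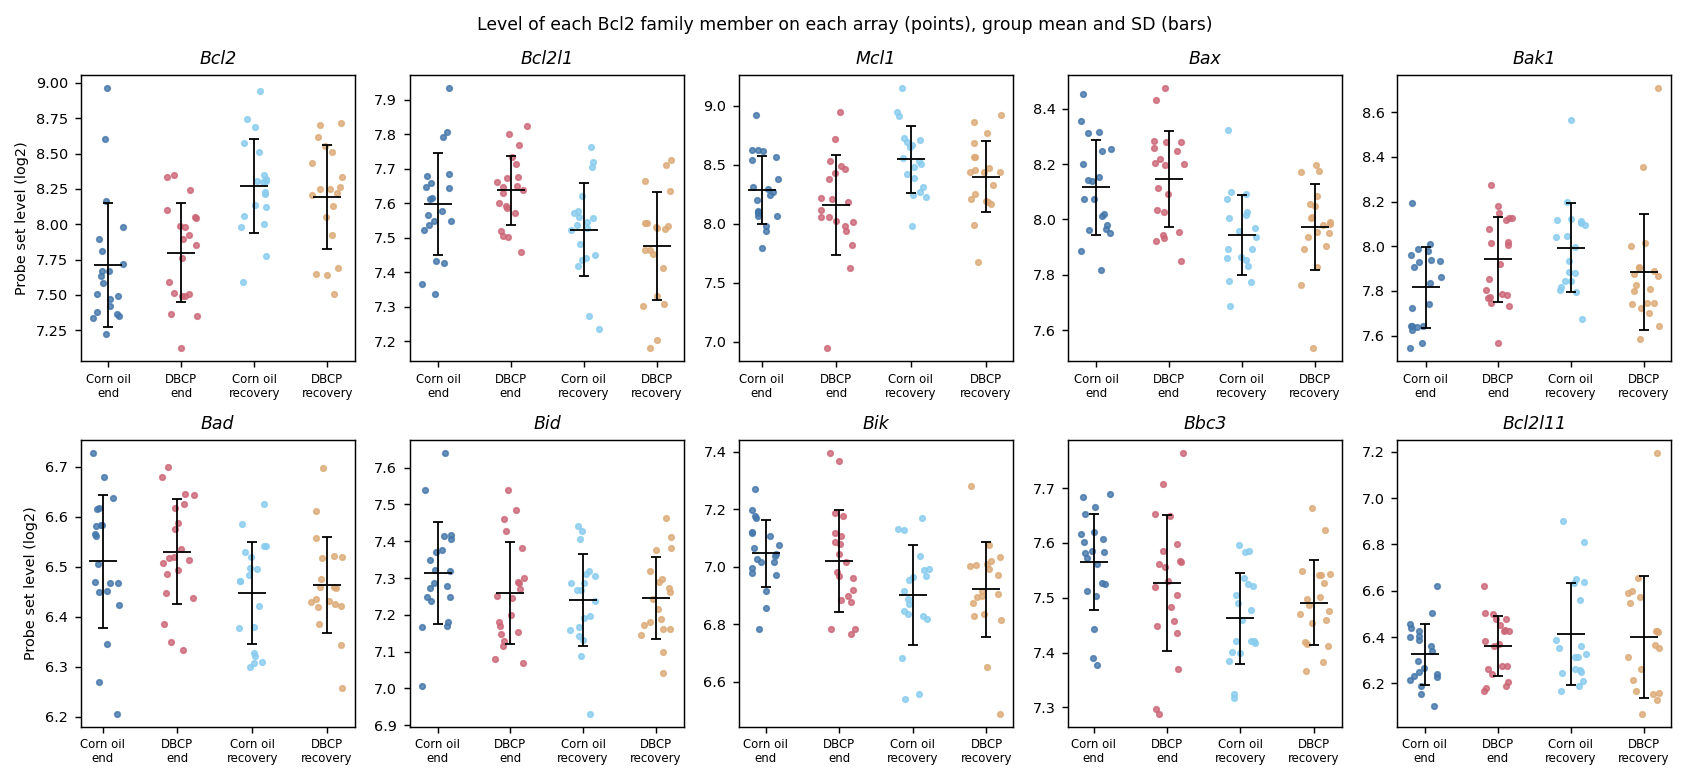
Log2 level of each of the 10 genes (1 panel per gene, each with its own vertical axis) on each of the 78 arrays, in 4 groups on the horizontal axis, with group means and SD as bars. Corn oil and DBCP points overlap within each time point in every panel, while the recovery points for Bcl2 lie mostly above and those for Bax mostly below the end of exposure.

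The comparison over time in corn oil rats, 19 recovery against 20 end of exposure arrays, describes how sperm samples collected at the later time differed without the toxicant. The anti-apoptotic Bcl2 and the effector Bak1 rose, and the effector Bax and the BH3-only genes Bik and Bbc3 fell. This is 5 of 10 members, in a contrast in which 24.3% of all probe sets passed (11.5% higher and 12.8% lower). The higher ones were 47.4% of those that passed, and 63.4% with each array centred on its median. The median difference of the 10 was -0.07, against -0.04 for all probe sets.

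Bcl2 lay between 7.59 and 8.94 (median 8.30) on recovery arrays and between 7.23 and 8.97 (median 7.61) at the end of exposure. The ranges overlapped over most of their width. Replicate 16 of the earlier group held the highest Bcl2 value of all 78 arrays, and the next in that group stood at 8.61. The mean rose from 7.71 ± 0.44 (SD, n = 20) to 8.27 ± 0.33 (SD, n = 19), a difference of 0.56 ± 0.12 or 1.47-fold (limma adjusted p = 3.35e-04), and 18 of 19 recovery arrays lay above the earlier mean. Of all probe sets 99.3% had a lower difference.

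Bax moved the other way, by less. Its values lay between 7.69 and 8.32 (median 7.94) on recovery arrays and between 7.82 and 8.45 (median 8.11) before. It fell by 0.17 ± 0.05, or 1.13-fold (limma adjusted p = 0.0122), with 18 of 19 recovery arrays below the earlier mean. The second Bax probe set, designed to another GenBank record, stood at -0.11 ± 0.06 (limma adjusted p = 0.144).

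Bak1 lay between 7.68 and 8.56 (median 8.00) on recovery arrays and between 7.54 and 8.19 (median 7.85) before, and rose by 0.18 ± 0.07 (limma adjusted p = 0.0410, 16 of 19 arrays above the earlier mean). The call is marginal. It was lost in 18 of 78 fits that left out 1 array each, without corn oil end of exposure replicates 3, 6, 7, 8, 9, 12, 13, 14 or 17 or corn oil recovery replicates 4, 5, 7, 8, 10, 11, 13, 14 or 20. The difference in these fits was at least 0.15 and the limma adjusted p at most 0.0926.

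Bik, an endoplasmic reticulum BH3-only protein, lay between 6.54 and 7.17 (median 6.92) after recovery and between 6.78 and 7.27 (median 7.04) before, and fell by 0.15 ± 0.05 (limma adjusted p = 0.0312, 16 of 19 below). Without corn oil end of exposure replicate 7 or corn oil recovery replicates 4, 8 or 11 the call was lost, with a difference of -0.13 and a limma adjusted p up to 0.0668, and the count of members that passed was then 3. Bbc3 lay between 7.32 and 7.60 (median 7.46) after recovery and between 7.38 and 7.69 (median 7.58) before, and fell by 0.10 ± 0.03 (limma adjusted p = 0.0174, 16 of 19 below). With each array centred on its median, Bik and Bbc3 did not pass (-0.12, limma adjusted p = 0.0652, and -0.07, limma adjusted p = 0.0798), and Bik did not with quantile normalization either (-0.12, limma adjusted p = 0.0526).

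Mcl1 just missed the threshold. Its values lay between 7.98 and 9.15 (median 8.53) on recovery arrays and between 7.79 and 8.92 (median 8.25) before, a difference of 0.26 ± 0.10 (limma adjusted p = 0.0553, 15 of 19 above). In 14 of 78 fits that left out 1 array each it passed, without DBCP end of exposure replicates 7 or 14, DBCP recovery replicate 12, corn oil end of exposure replicates 1, 9, 10, 11, 12 or 13, or corn oil recovery replicates 5, 9, 17, 19 or 20. The difference was then between 0.26 and 0.29, with a limma adjusted p of at least 0.0307. It also passed with each array centred on its median (0.29, limma adjusted p = 0.0390) and, at the same difference of 0.26, among the brighter probe sets alone, with 1 probe set per gene and with the corn oil groups alone (limma adjusted p = 0.0412, 0.0466 and 0.0254). The dimmer Mcl1 probe set gave -0.04 ± 0.04, so the 2 probe sets of this gene disagree. The others, Bcl2l1 (-0.07), Bad (-0.06), Bid (-0.07) and Bcl2l11 (0.09), did not pass, with SE between 0.04 and 0.06. Bid passed with limma's array weights (-0.10, limma adjusted p = 0.0449) and in replicate numbers 1 to 10 alone (-0.17, limma adjusted p = 0.0419).

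In DBCP rats the same comparison, 19 recovery against 20 end of exposure arrays, gave a rise of Bcl2 and falls of Bax and of Bcl2l1, another guardian. This is 3 of 10, where 13.5% of all probe sets passed (7.28% higher and 6.19% lower). The median difference of the 10 genes was -0.05, against 0.01 for all probe sets. No array is shared with the corn oil comparison, and the difference between both comparisons is the interaction, which passed for none of the 10.

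Bcl2 lay between 7.50 and 8.71 (median 8.25) on recovery arrays and between 7.12 and 8.35 (median 7.87) before. It rose by 0.39 ± 0.12, or 1.31-fold (limma adjusted p = 0.0152), with 15 of 19 recovery arrays above the earlier mean and wide overlap of the groups. Its interaction was -0.16 ± 0.17, so the rises in corn oil and DBCP rats were not shown to differ.

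Bax lay between 7.53 and 8.20 (median 7.98) on recovery arrays and between 7.85 and 8.48 (median 8.20) before, and fell by 0.18 ± 0.05 (limma adjusted p = 0.0153, 16 of 19 below). Its second probe set also fell, by 0.16 ± 0.06 (limma adjusted p = 0.0427). With quantile normalization the first one did not pass (-0.15, limma adjusted p = 0.0916). The interaction of Bax was -0.0034 ± 0.07, with a 95% interval of -0.15 to 0.14.

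Bcl2l1 lay between 7.18 and 7.72 (median 7.52) on recovery arrays and between 7.46 and 7.82 (median 7.64) before. It fell by 0.16 ± 0.04 (limma adjusted p = 0.00841, 16 of 19 below). This value comes from a probe set annotated with a GenBank record alone. The other probe set of the gene, annotated with the RefSeq transcripts and with a lower mean (7.00), stood at -0.03 ± 0.04 (limma adjusted p = 0.714). The fall of Bcl2l1 was therefore seen on 1 of its 2 probe sets.

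Mcl1 had 0.24 ± 0.10 (limma adjusted p = 0.109, 17 of 19 above). It passed without DBCP end of exposure replicate 14 (0.28, limma adjusted p = 0.0466), in replicate numbers 1 to 10 alone (0.43, limma adjusted p = 0.0440) and as the mean of both its probe sets (0.16, limma adjusted p = 0.0437). Bak1 had -0.05 ± 0.07 beside its rise in corn oil rats, a difference between treatments that is the interaction given above and did not pass. The BH3-only genes had values between -0.10 (Bik) and 0.04 (Bcl2l11), none passing.

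**Figure D2:**
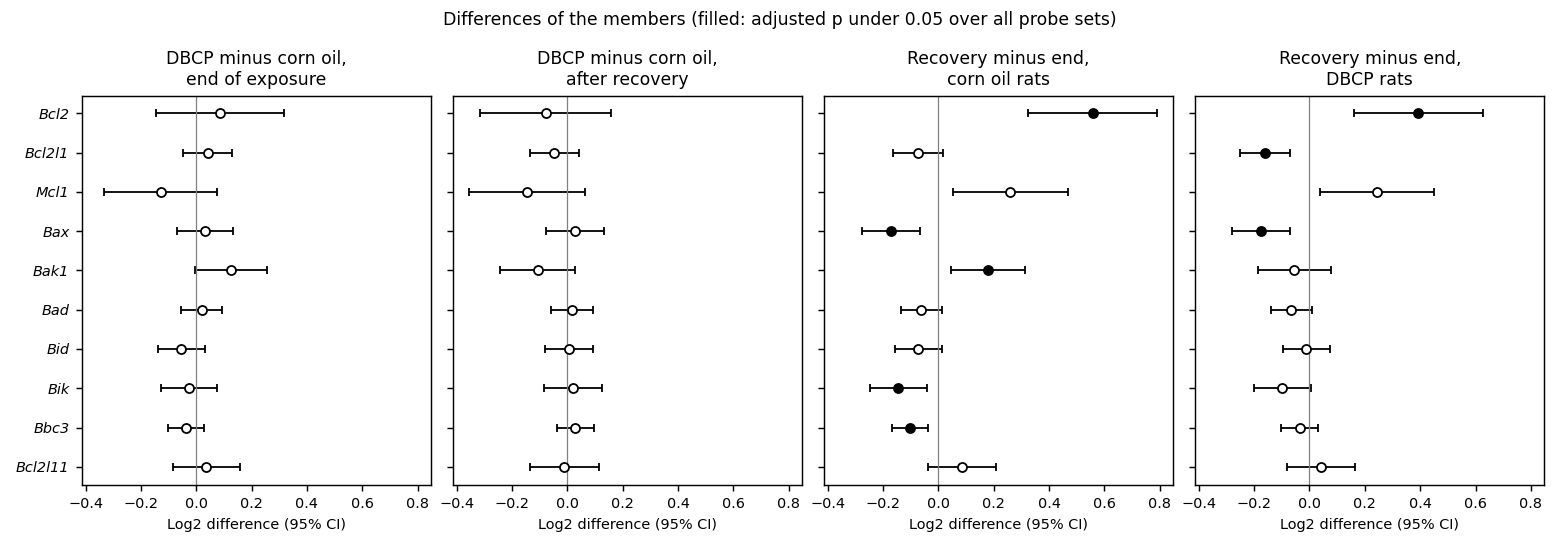
Log2 difference (horizontal axis) of each of the 10 genes (rows) in the 4 comparisons between groups, with the 95% interval of limma's fit as bars, and filled circles where the adjusted p was under 0.05. The panels of DBCP against corn oil hold no filled circle, and the panels over time hold 5 in corn oil rats and 3 in DBCP rats.

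Bcl2 and Bax are often read against each other, since one opposes the other at the mitochondrion. For the difference of both log2 levels within an array, only changes between groups have a meaning. This difference is unaltered by shifting a whole array, as in median centring, but can be altered by quantile normalization. Its mean was -0.40 ± 0.57 (SD, n = 20) in corn oil and -0.35 ± 0.43 (SD, n = 20) in DBCP rats at the end of exposure, and 0.33 ± 0.43 (SD, n = 19) and 0.22 ± 0.47 (SD, n = 19) after recovery. This is a change of 0.73, or 1.66-fold, over time in corn oil rats and of 0.57, or 1.48-fold, in DBCP rats, in favour of Bcl2. As the pair was singled out with its values known, no test is given.

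The time differences of Bcl2 and Bax kept their direction in both sets of replicate numbers, fitted apart. In corn oil rats Bcl2 stood at 0.65 ± 0.15 in numbers 1 to 10 and 0.47 ± 0.17 in 11 to 20, and in DBCP rats at 0.47 ± 0.15 and 0.31 ± 0.17. Bax stood at -0.20 ± 0.07 and -0.15 ± 0.07 in corn oil rats and at -0.21 ± 0.07 and -0.15 ± 0.07 in DBCP rats. With fewer arrays, Bcl2 passed in numbers 1 to 10 alone (limma adjusted p = 0.00327 in corn oil and 0.0398 in DBCP rats) and Bax in neither set.

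Markers of late spermatids and sperm, and of leukocytes, moved with these time differences. The mean level of 17 leukocyte markers ranged from 7.65 to 8.47 in corn oil rats at the end of exposure and from 7.95 to 8.85 after recovery, and from 7.42 to 8.20 and 7.88 to 8.61 in DBCP rats. Of these markers 12 of 17 rose in corn oil and 14 of 17 in DBCP rats, none fell, and the common leukocyte antigen Ptprc was among those that rose (0.56 ± 0.10 in corn oil rats). The mean of 15 late spermatid markers ranged from 9.48 to 11.18 and then from 9.51 to 10.53 in corn oil rats, and from 10.00 to 12.00 and then from 9.63 to 10.84 in DBCP rats, with 9 and 13 of 15 falling and 0 rising. Of all probe sets 11.5% rose and 12.8% fell in corn oil rats, and 7.28% rose and 6.19% fell in DBCP rats.

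With both marker levels as covariates, 0 of 10 members passed in either time comparison. Bcl2 then stood at 0.24 ± 0.12 (limma adjusted p = 0.230) in corn oil and 0.15 ± 0.13 (limma adjusted p = 0.606) in DBCP rats, less than 0.56 and 0.39 before. Bax stood at -0.12 ± 0.06 (limma adjusted p = 0.262) in corn oil and -0.15 ± 0.07 (limma adjusted p = 0.269) in DBCP rats, against -0.17 and -0.18 before. Bcl2l1 stood at -0.16 ± 0.06 (limma adjusted p = 0.184) in DBCP rats. Mcl1 changed sign, to -0.14 ± 0.11 and -0.19 ± 0.12, neither passing. The covariates differ between the time points themselves and widen the errors, so a lost call here does not show that a difference was absent. The late spermatid list also holds markers of sperm, so this fit adjusts for RNA of the sperm themselves too. The other marker lists were not among the covariates. Of these, the mean level of 8 epididymal basal and clear cell markers was 7.06 before and 7.24 after recovery in corn oil rats. In DBCP rats that level was 7.21 before and 7.26 after recovery.

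**Figure D3:**
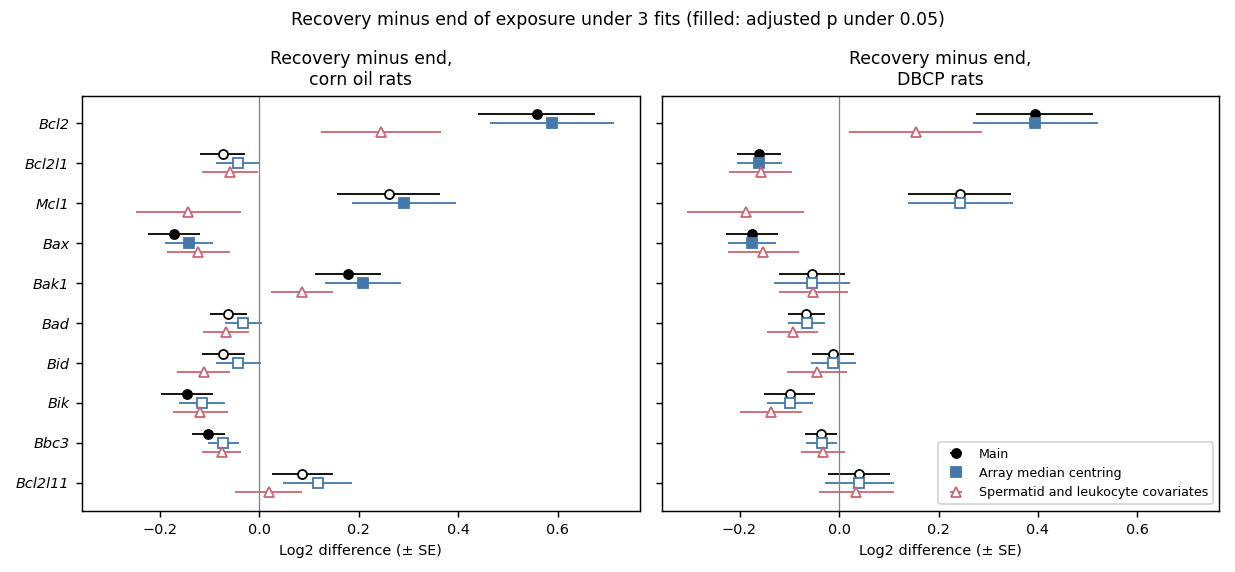
Log2 difference of recovery against end of exposure (horizontal axis, bars are SE) for the 10 genes (rows) in corn oil and DBCP rats, from the fit without covariates, after centring each array on its median, and with the late spermatid and leukocyte levels as covariates. Filled symbols passed an adjusted p of 0.05, and none of the covariate fits did, while Bcl2 moved from 0.56 to 0.24 in corn oil rats and Bax from -0.17 to -0.12.

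How the genes varied from rat to rat within groups was described by correlations over 78 arrays after each group's mean was taken out. The points share the array and with it the quality of its RNA and the mix of cells. Of 45 pairs of members 15 passed a two-sided permutation test of Pearson's r within groups (100000 resamples, Benjamini-Hochberg over the 45), 6 positive and 9 negative. By Spearman's rho 8 pairs passed, 3 positive and 5 negative, all of them among the 15. How many pairs of any genes on the array would pass was not counted, so these counts have no background beside them. Among the 45 pairs, 1 set of positive pairs stood out by size: Bcl2 with Bak1 (Pearson r = 0.624, Spearman rho = 0.645), Bak1 with Bcl2l11 (r = 0.627, rho = 0.511) and Bcl2 with Bcl2l11 (r = 0.549, rho = 0.545). Genes outside these 10 reached a higher r with each of Bcl2 (0.840), Bak1 (0.803) and Bcl2l11 (0.766), as given further on. Each of the 3 pairs had a permutation p of 1e-05 by either coefficient, the smallest these resamples can give, and an adjusted p of 9e-05 for r and 1.5e-04 for rho.

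Without the 2 arrays farthest from the median these 3 correlations were 0.624, 0.503 and 0.548. Within replicate numbers 1 to 10 they were 0.622, 0.692 and 0.496, and within 11 to 20 they were 0.660, 0.557 and 0.587. In single groups the lowest was 0.390 and the highest 0.782. So a guardian, an effector and a BH3-only gene varied together, although their encoded proteins act in opposite directions. Several of their highest group values came from arrays with a limma quality weight under 0.5. These were DBCP recovery replicate 7 (Bak1, Bcl2l11), corn oil recovery replicate 11 (Bcl2, Bcl2l11) and, at the end of DBCP exposure, replicates 2 (Bcl2, Bak1) and 20 (Bcl2l11). The other highest values came from arrays with weights of 0.56 to 0.76. These were corn oil end of exposure replicates 16 (Bcl2) and 18 (Bak1, Bcl2l11), corn oil recovery replicate 4 (Bak1) and DBCP recovery replicate 19 (Bcl2). The highest weight of all 78 arrays was 2.10. The part of array quality in these correlations was not tested, and Bcl2l11 exceeded its array's median on only 7 of 78 arrays.

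Bax ran against this set. Its r was -0.494 with Bcl2 (rho = -0.490), -0.368 with Bak1 (rho = -0.366) and -0.419 with Bcl2l11 (rho = -0.435), with permutation p of 1e-05, 0.0015 and 1e-04 (adjusted p = 9e-05, 0.00844 and 7.5e-04) and for rho of 3e-05, 0.0016 and 3e-05 (adjusted p = 2.7e-04, 0.0103 and 2.7e-04). Without the 2 farthest arrays r was -0.430, -0.302 and -0.375. Within replicate numbers 1 to 10 it was -0.313, -0.247 and -0.379, and within 11 to 20 it was -0.628, -0.575 and -0.418. Bik ran against Bak1 (r = -0.520, rho = -0.396, permutation p = 1e-05 and 4.5e-04, adjusted p = 9e-05 and 0.00337, r = -0.381 without the 2 farthest arrays). Within replicate numbers 1 to 10 that r was -0.503, and within 11 to 20 it was -0.543.

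The levels of cell markers varied with these genes too. Of 60 relations between a member and one of 6 marker lists 18 passed the same test of r (adjusted over the 60), and 17 passed by rho. How many genes of the whole array would pass with these lists was not counted. The leukocyte level correlated with Mcl1 (r = 0.596, rho = 0.541), Bcl2 (r = 0.584, rho = 0.580) and Bak1 (r = 0.552, rho = 0.546), each with a permutation p of 1e-05 and an adjusted p of 1.2e-04 for r and 1.5e-04 for rho. Without the 2 farthest arrays r was 0.543, 0.633 and 0.516. Within replicate numbers 1 to 10 it was 0.628, 0.533 and 0.587, and within 11 to 20 it was 0.562, 0.646 and 0.507. Bcl2l11 passed with the leukocyte level as well (r = 0.416, rho = 0.428, permutation adjusted p = 0.00187 and 0.002), and Bik (r = -0.378, rho = -0.312, permutation adjusted p = 0.0048 and 0.029) and Bbc3 (r = -0.311, rho = -0.289, permutation adjusted p = 0.0221 and 0.0478) ran against it. Their r without the 2 farthest arrays was 0.400, -0.358 and -0.296. In single groups it ran from 0.0013 to 0.635 for Bcl2l11, from -0.615 to -0.0041 for Bik and from -0.531 to 0.054 for Bbc3. For Mcl1, Bcl2 and Bak1 the lowest r in a single group was 0.464, 0.330 and 0.358.

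The late spermatid level correlated with Bak1 (r = 0.487, rho = 0.430, permutation p = 1e-05 and 2e-04, adjusted p = 1.2e-04 and 0.002) and, negatively, with Bik (r = -0.439, rho = -0.391, permutation p = 6e-05 and 6.8e-04, adjusted p = 6e-04 and 0.00453). Without the 2 farthest arrays r was 0.454 and -0.433. Within replicate numbers 1 to 10 it was 0.510 and -0.393, and within 11 to 20 it was 0.479 and -0.482. The level of epididymal basal and clear cell markers correlated with Bcl2 (r = 0.592, rho = 0.540, permutation p = 1e-05, adjusted p = 1.2e-04 and 1.5e-04, r = 0.564 without the 2 farthest arrays). Within replicate numbers 1 to 10 that r was 0.556, and within 11 to 20 it was 0.630. This level also passed by r with Bak1 (0.434) and Bcl2l11 (0.328) and, negatively, with Bik (-0.444), Bbc3 (-0.402) and Bax (-0.352), with permutation adjusted p of 8.25e-04, 0.0122, 7.71e-04, 0.00198 and 0.00988. By rho, Bcl2l11 did not pass here (0.262, permutation adjusted p = 0.0681). The 8 markers of this list did not move as one. Over time in corn oil rats 4 lay above 0 and 4 below, between -0.18 and 0.87, with 3 rising and 1 falling. How far their mean stands for these cells was not tested. The part of the leukocyte and of the basal and clear cell levels in the correlations between Bcl2, Bak1 and Bcl2l11 was not tested. No member passed with the principal cell markers, where r lay between -0.0428 and 0.0976. Bcl2l11 passed with the late spermatid level (r = 0.351, rho = 0.300, permutation adjusted p = 0.00295 and 0.029). Bid passed with the red cell level (r = 0.339, rho = 0.332, permutation adjusted p = 0.0134 and 0.0195), with r in single groups from -0.102 to 0.562. It also passed with the level of stroma and endothelium markers (r = 0.339, rho = 0.332, permutation adjusted p = 0.0122 and 0.0195). With that level Bcl2l11 passed by r alone (-0.289, permutation adjusted p = 0.0454, r in single groups from -0.538 to 0.0821) and Bax by rho alone (0.286, permutation adjusted p = 0.0491). Bcl2l1 and Bad passed with none of the 6 lists.

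**Figure D4:**
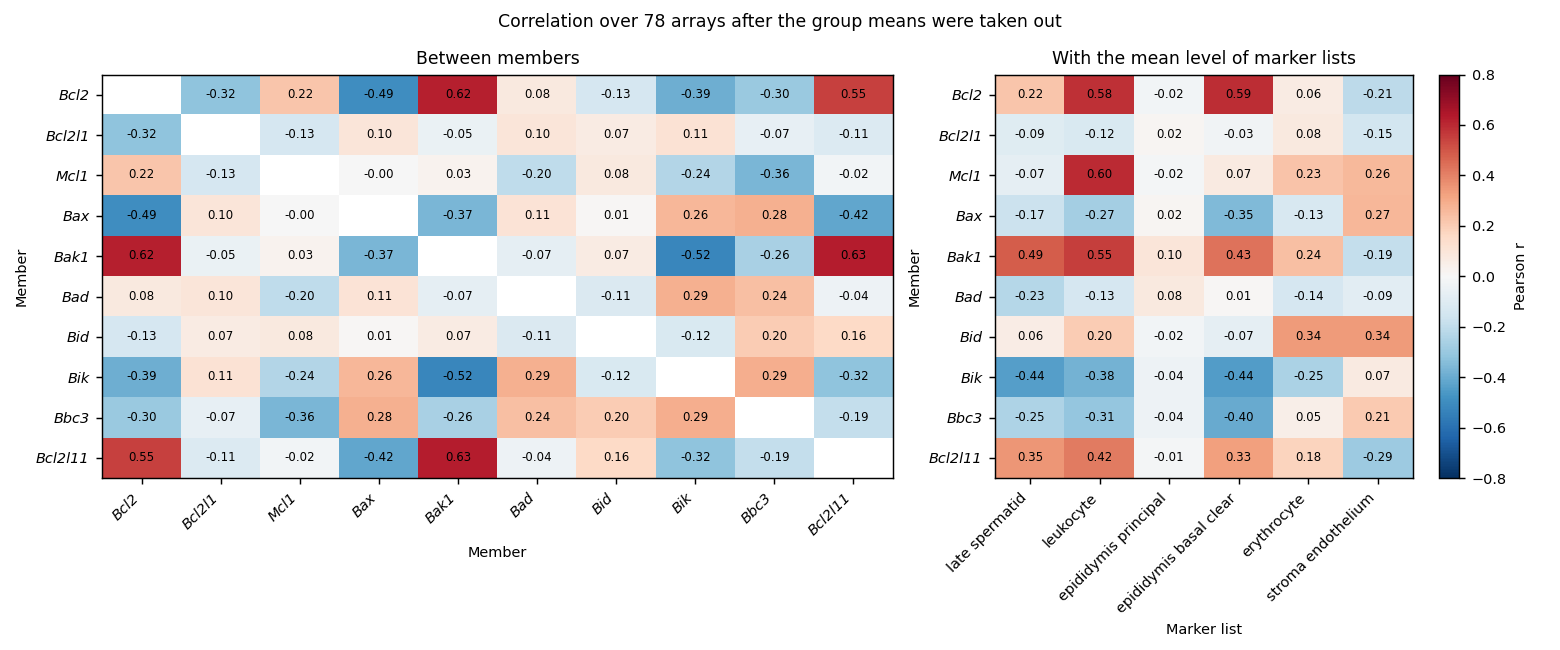
Pearson r, as colour and number, between the 10 genes (left) and between each gene and the mean level of 6 marker lists (right), over 78 arrays after each group's mean was taken out. Bcl2, Bak1 and Bcl2l11 form a set with r from 0.55 to 0.63, Bax is negative against each of them, and Mcl1 is highest with the leukocyte markers (0.60).

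Among 14505 other genes, those most like each member by this r were read off as a description. For Bcl2 they were Cd2ap (r = 0.840), an adaptor at the cell cortex, and Nfia (0.839), a transcription factor. For Mcl1 they were Ctsc (0.721), a protease that activates the granule proteases of leukocytes, and Srgn (0.699), the proteoglycan of their granules. For Bak1 they were Fkbp8 (0.803), a mitochondrial partner of Bcl2, and Gsk3a (0.796), a kinase. For Bcl2l11 they were Eefsec (0.766), the elongation factor for selenocysteine, and Chmp3 (0.735), of the membrane-cutting machinery.

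For Bax the likest genes were Qrfp (0.715), a neuropeptide gene, and Eln (0.707), which encodes elastin, and for Bbc3 they were Col11a2 (0.714), a collagen gene, and Nkx2-1 (0.711), a factor of thyroid and lung. For Bik they were Slc22a6 (0.655), a renal anion transporter, and Krtap10-10l2 (0.639). Bcl2l1 (Nrm 0.472, Gltpd2 0.467), Bad (Pard6a 0.504, RT1-Ha 0.498) and Bid (Ly6e 0.475, Rasgrp2 0.465) had weaker likest genes.

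Other genes of the cell death pathway came from 4 lists: more distant Bcl2 relatives, the caspase machinery, the death receptors, and regulators of the family. Of 63 genes 55 were on the array. In both DBCP contrasts and in the interaction 0 of 55 passed. The smallest p at the end of exposure were those of Bnip3, a hypoxia-induced relative that marks mitochondria for removal (0.26 ± 0.09, limma adjusted p = 0.188), and E2f1, a cell cycle factor (0.12 ± 0.04, limma adjusted p = 0.262). After recovery they were those of Cflar, which blocks caspase 8 (-0.13 ± 0.06), and Hrk, a BH3-only gene (0.08 ± 0.05), with a limma adjusted p of 0.983 each. For the interaction they were those of Cflar (-0.22 ± 0.08) and Bnip3 (-0.31 ± 0.12), with a limma adjusted p of 0.454 each.

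Over time in corn oil rats 11 of the 55 rose and 9 fell, in a contrast in which 11.5% of all probe sets rose and 12.8% fell. The largest rise of the named genes was that of Aifm1, a mitochondrial flavoprotein that can enter the nucleus in dying cells (0.77 ± 0.13, limma adjusted p = 1.40e-05). Usp9x, which removes ubiquitin from Mcl1 and so stabilises it, rose by 0.60 ± 0.10, Cflar by 0.33 ± 0.06 and the death ligand Tnfsf10 by 0.48 ± 0.09. By list, 3 of 13 relatives rose and 5 fell, 2 of 20 caspase machinery genes rose and 1 fell, 4 of 10 death receptor genes rose and 0 fell, and 2 of 12 regulators rose and 3 fell.

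Over time in DBCP rats 5 of the 55 rose and 6 fell, where 7.28% of all probe sets rose and 6.19% fell. Aifm1 (0.55 ± 0.13), Usp9x (0.41 ± 0.10) and Tnfsf10 (0.39 ± 0.09, limma adjusted p = 0.00102) rose, and Cdkn1a, the p53 target that stops the cell cycle, fell by 0.21 ± 0.05 (limma adjusted p = 0.00390). By list, 1 of 13 relatives rose and 1 fell, 1 of 20 caspase machinery genes rose and 2 fell, 2 of 10 death receptor genes rose and 0 fell, and 1 of 12 regulators rose and 3 fell.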

How the data were processed

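The values are log2 levels of 29214 probe sets on 78 one-colour arrays, deposited by the authors as a table. The submitters' processing notes name limma without a version, and the background correction, normalization and summarisation of these values were not stated there or in the labels. The values were used as deposited. Samples were grouped by their labels for treatment and recovery. Probe sets were named through the platform's annotation, which can be old, and 15310 had 1 symbol, 323 several and 13581 none.

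One model with a mean per group was fitted over all probe sets with limma 3.58.1 in R 4.3.3 (lmFit, eBayes), with Benjamini-Hochberg adjustment over 29214 probe sets in each of 5 contrasts, and was tested on simulated data. In each contrast up to 4 genes of the pathway lists were named, those of smallest p among the genes that passed, or 2 where none passed. Correlations used residuals from group means and permutation within groups. The 2 likest genes of each member by r were named. The members and lists were chosen with earlier results of these data known. The limma p-values weigh a difference between groups against the spread between samples, which is estimated over all 4 groups together. A fit without an array of another group can therefore change a call. The permutation p-values weigh a correlation against those of arrays reshuffled within groups. Alternatives covered scaling, the filter, array quality, replicate numbers, cell marker levels, the features tested and single arrays left out.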

Additional observations from a re-analysis of the deposited data

How the results depend on the processing

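In the 3 contrasts that test DBCP, 0 of 10 members passed under every alternative run and in each of 78 fits without 1 array. Of the time comparisons, the count in corn oil rats was 3 to 6 in the 78 fits without 1 array and that in DBCP rats 3 to 4. With the replicate number as a block the corn oil count was 3 rather than 5, with Bak1 and Bik no longer passing, and the DBCP count stayed within 1.5 times. The numbers do not pair the samples: the median correlation of 114 pairs of the same number was 0.00899, and 7 of 78 arrays correlated best with their own number. Replicate numbers 1 to 10 alone gave 3 in corn oil rats, and numbers 11 to 20 alone gave 0 in corn oil and 0 in DBCP rats, with fewer arrays in the fit. With late spermatid and leukocyte levels as covariates both counts were 0. No member that passed changed direction under any alternative run.

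Of all probe sets, those passing over time in corn oil rats fell from 7108 to 385 with numbers 11 to 20 alone and to 1256 with the covariates, and were 4382 with 1 probe set per gene and 4391 with gene means, where fewer features were tested. In DBCP rats 3933 became 505, 430 and, in the brighter part of the array, 2375. In the DBCP contrast at the end of exposure 3 of 14 alternatives gave more than 0, the most being 30 with the covariates. Fits without 1 array gave between 0 and 14. Of the probe sets that passed in corn oil rats 47.4% were higher, 54.4% after quantile normalization and 63.4% after centring on array medians. The interaction was not run on the groups of a contrast alone, since it needs all 4. Bad and Bcl2l11 were too dim for the filtered fit.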
